A study of Mus musculus with 9 samples.

Results

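The genes described here encode the enzymes that build cholesterol and fatty acids, together with the proteins that sense sterols and switch those enzymes on. The list holds 32 genes, matched by symbol, which were chosen with earlier results of these data known, and 31 of them had a probe set under their own symbol among the 18193 genes tested. Of these 31, 17 are sterol synthesis enzymes, 4 are regulators and 10 are fatty acid enzymes; Acat2 was not analysed here. Where a gene had several probe sets, the one brightest on average over the 9 arrays stood for it. All 31 genes lay above the background guide described below in every gate, with values from 6.93 to 13.39 on the log2 scale.

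Cholesterol is assembled from acetyl-CoA through mevalonate, isoprenoid units, squalene and lanosterol, and a late series of steps then removes methyl groups and moves double bonds. Fatty acids are built from the same precursor by carboxylation and chain synthesis, and are then elongated and desaturated. Both pathways are switched on by the SREBP factors, which the sterol sensor SCAP releases for cleavage when sterols are low and which INSIG proteins hold back. In skin these pathways are known from the sebaceous gland, the epidermal barrier and fat, and in nerve from cells that make myelin.

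RNA came from cells sorted from the back skin of neonatal mice at postnatal day 2, with a stated yield of about 50000 cells per population. R3 held GFP+CD133+ cells, labelled as papilla cells of guard, awl and auchene hairs. R2 held GFP-CD133+ cells, labelled as papilla cells of zigzag hairs, and R1 held GFP-CD133- cells, described as the dermal pool without papilla cells. The 3 mice, numbered 2, 4 and 5, each gave 1 array per gate, so that all gates come from the same animals. The sources used here do not give their strain, their genotype or the promoter that drives GFP. The dermal papilla is the mesenchymal cluster at the base of the hair follicle.

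Prom1, which encodes CD133, had log2 values of 10.16 to 10.53 in R3, 11.81 to 11.89 in R2 and 7.12 to 7.82 in R1. Of 12 papilla markers, 11 rose in R3 against R1 and 9 rose in R2 against R1. Of 9 measured glial and Schwann markers, 8 rose in R3 against R2 and 5 rose in R3 against R1, while 5 fell in R2 against R1. Endothelial markers fell in R3 against R2 in 11 of 11 cases and rose in R2 against R1 in 10 of 11. Against R1, 10 of 10 keratinocyte, 6 of 6 leukocyte and 5 of 9 dermal fibroblast markers fell in both papilla gates. As a guide to background, 95% of the 44 probe sets for olfactory receptors lay below a value of 5.14 to 5.46, depending on the array. In R1, 0 of the 12 papilla markers and 0 of the 10 keratinocyte markers had means under this guide. The 3' minus 5' difference of the beta-actin control probe sets, a sign of RNA quality, was 0.12 to 0.20 in R3, 0.11 to 0.22 in R2 and 0.04 to 0.07 in R1. For Gapdh the same difference overlapped between the gates, at 2.68 to 3.02 in R3, 2.57 to 2.85 in R2 and 2.63 to 2.97 in R1. In RNA from sorted populations, fewer cells of a type and less RNA per cell cannot be told apart.

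A share of the sterol and fatty acid synthesis genes rose in R3 against R1, fewer rose in R3 against R2, and in R2 against R1 the few calls went both ways. Against R1, 12 of the 31 rose in R3 and 0 fell (limma adjusted p under 0.05, the threshold used throughout; 12 higher and 0 lower at an unadjusted p under 0.05). Of all genes tested, 7.9% rose and 10.8% fell in this comparison. The shares of all genes, here and below, include genes at background and are not matched to the 31 genes for level. Against R2, 4 of the 31 rose in R3 and 0 fell (9 higher and 0 lower unadjusted), beside 1.97% of all genes that rose and 3.06% that fell. In R2 against R1, 2 rose and 1 fell (4 and 4 unadjusted), beside 6.89% and 6.16% of all genes, so these counts lay near the share of all genes. The 3 comparisons share their arrays and are not independent of each other.

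Over the 31 genes the median log2 change was 0.31 in R3 against R1, 0.28 in R3 against R2 and 0.04 in R2 against R1, where the medians of all genes were -0.01, -0.01 and -0.02. The estimate was above 0 for 24, 26 and 19 of the 31 genes in these comparisons. The mean was highest in R3 for 23 of the 31 genes (74.2%), against 32% of all genes, and 15 followed the order R3, R2, R1 from high to low (48.4%, against 18.4% of all genes). The 3 R3 arrays lay above the 3 R1 arrays for 14 of the 31 genes and below them for 0, where the shares of all genes were 15.5% and 18.9%. They lay above the 3 R2 arrays for 14 genes and below them for 1, where the shares of all genes were 9.98% and 12.8%. R2 arrays lay above R1 arrays for 8 genes and below them for 5, where the share of all genes was 15.4% each way.

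**Figure D1:**
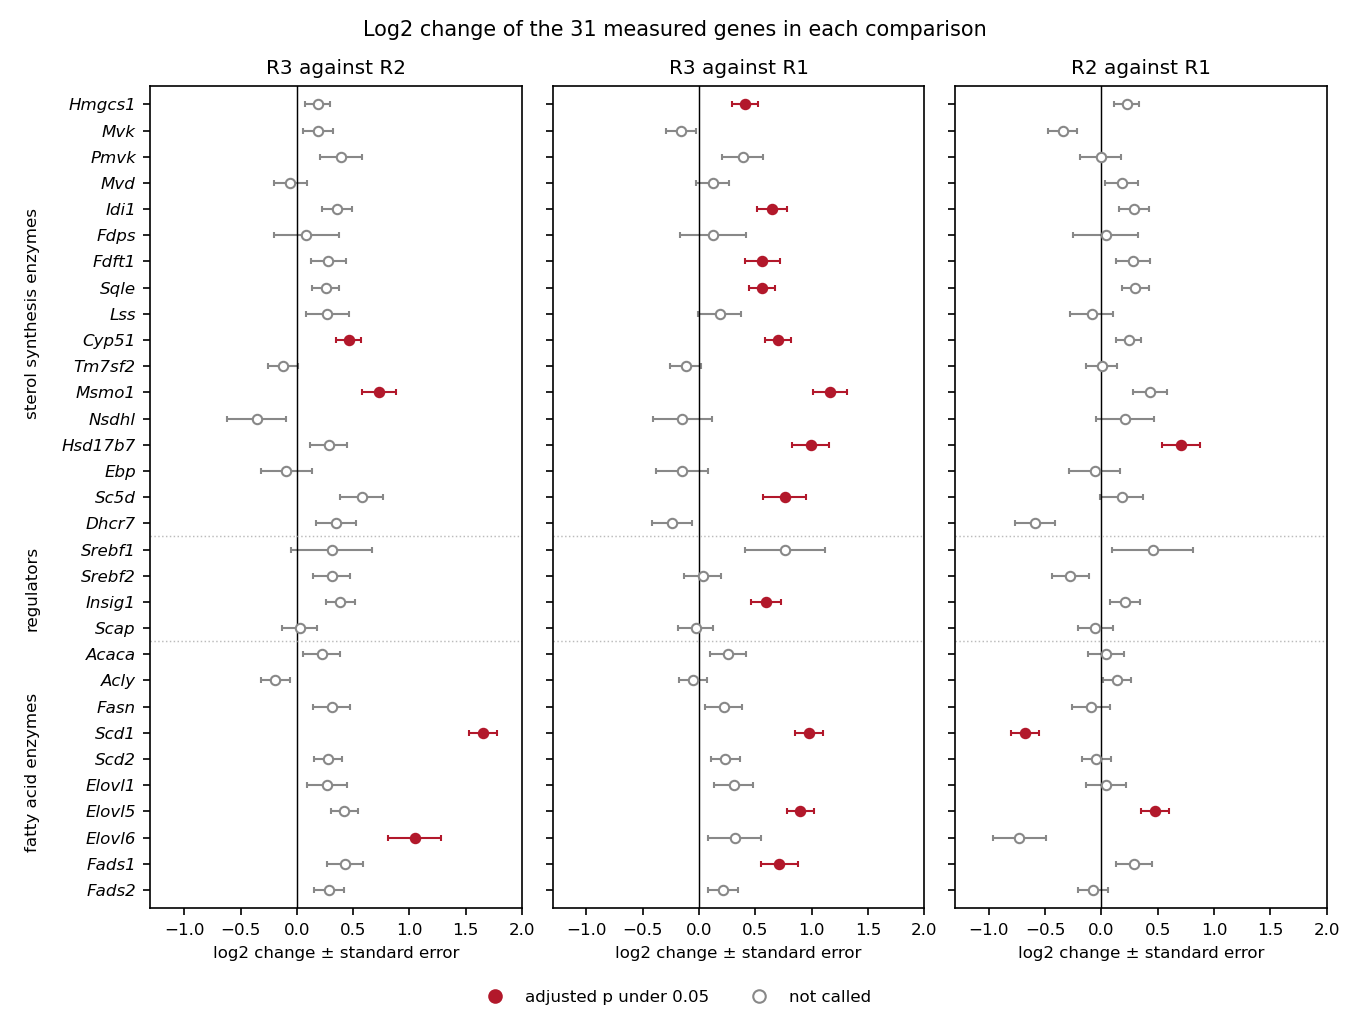
Log2 change with its moderated standard error for the 31 measured genes, in R3 against R2, R3 against R1 and R2 against R1, ordered by role. Filled points passed an adjusted p of 0.05. In R3 against R1, 12 points are filled and all lie right of 0; in R2 against R1 the points lie on both sides.

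**Figure D2:**
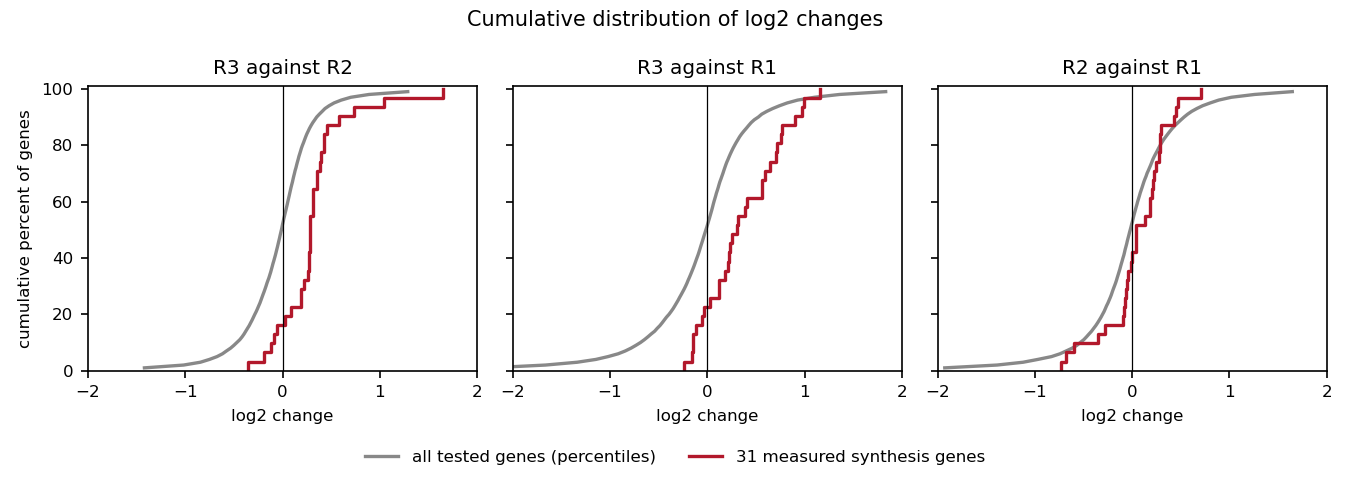
Cumulative percent of genes (vertical axis) by log2 change (horizontal axis) for the 31 measured genes, drawn as steps, and for all tested genes, drawn from percentiles. The steps lie right of the curve over most of their range in both comparisons of R3, with medians of 0.28 and 0.31, and cross it in R2 against R1.

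The counts in R3 against R2 and in R2 against R1 moved with single arrays. In R3 against R2 the count of 4 fell to 1 without the R3 array of mouse 2 or 4 or the R2 array of mouse 4 or 5. It was 2 without the R3 array of mouse 5, the R2 array of mouse 2 or the R1 array of mouse 4. In R2 against R1 the count of higher genes was 0 without the R2 array of mouse 2 or 4 or the R1 array of mouse 4 or 5, and 1 without the R2 array of mouse 5, and that of lower genes was 2 without the R3 array of mouse 2 or 4 or the R1 array of mouse 5. In R3 against R1 the count stayed between 8 and 12.

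Among the enzymes that lead from acetyl-CoA to lanosterol, 4 of 9 measured rose in R3 against R1: Hmgcs1, Idi1, Fdft1 and Sqle. Hmgcs1, the synthase that makes the HMG-CoA from which mevalonate is formed, had log2 values of 13.39, 13.30 and 13.37 in R3, 13.21, 13.23 and 13.07 in R2, and 13.05, 12.87 and 12.91 in R1 (mice 2, 4 and 5, here and below). Its 3 R3 arrays lay above all R2 arrays, and these above all R1 arrays. Hmgcs1 was 1.33-fold higher in R3 than in R1 (log2 change 0.41, standard error 0.11, n = 3 per gate, limma adjusted p = 0.0327). This call was lost without the R3 array of mouse 2 (adjusted p = 0.0853), 4 (0.065) or 5 (0.0756), and without the R1 array of mouse 4 (0.103) or 5 (0.077), and with the mean of its 5 probe sets (0.0612).

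Idi1, the isomerase that prepares isoprenoid units for joining, had log2 values of 11.87, 11.95 and 11.98 in R3, 11.63, 11.57 and 11.53 in R2, and 11.09, 11.26 and 11.51 in R1. The gates did not overlap. Idi1 was 1.57-fold higher in R3 than in R1 (log2 change 0.65, standard error 0.13, limma adjusted p = 0.00768), and the change of 0.36 against R2 did not pass (adjusted p = 0.18).

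Sqle, the squalene epoxidase that acts at a rate-limiting step, had log2 values of 10.14, 10.12 and 10.07 in R3, 9.88, 9.96 and 9.71 in R2, and 9.44, 9.57 and 9.64 in R1. Again every R3 array lay above every R2 array and every R2 array above every R1 array. Sqle was 1.47-fold higher in R3 than in R1 (log2 change 0.56, standard error 0.12, limma adjusted p = 0.00986).

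Fdft1, the squalene synthase that commits isoprenoids to sterols, had log2 values of 10.92, 11.06 and 11.02 in R3, 11.03, 10.54 and 10.59 in R2, and 10.51, 10.53 and 10.28 in R1. R3 lay above R1, while the R2 array of mouse 2 reached the R3 level. Fdft1 was 1.47-fold higher in R3 than in R1 (log2 change 0.56, standard error 0.15, limma adjusted p = 0.0324). The call was lost without the R3 array of mouse 2 (adjusted p = 0.0578), 4 (0.0967) or 5 (0.0776) or the R1 array of mouse 2 (0.0607), 4 (0.0589) or 5 (0.0957). With the mean of its 4 probe sets the change was 0.24 (adjusted p = 0.185).

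The other 5 of these enzymes were not called in any comparison in the fit described here. The kinases Mvk and Pmvk, which phosphorylate mevalonate, had log2 changes of -0.16 and 0.39 in R3 against R1 (limma adjusted p = 0.466 and 0.188). The decarboxylase Mvd, the farnesyl diphosphate synthase Fdps and the cyclase Lss, which makes lanosterol, had changes of 0.12, 0.12 and 0.18 (adjusted p = 0.629, 0.823 and 0.571). Fdps varied widely within a gate, from 7.56 to 8.45 in R3 and from 7.32 to 8.24 in R1. The probe sets of Lss disagreed: another one, with a mean level of 6.17, changed by 1.25 in R3 against R1 and by 0.85 against R2 (adjusted p over all probe sets = 0.00193 and 0.0388). With the mean of all probe sets, Lss was called higher in R3 against R1 (log2 change 0.55, adjusted p = 0.0143) and Mvk lower in R2 against R1 (log2 change -0.37, adjusted p = 0.038).

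Of the 8 measured enzymes that turn lanosterol into cholesterol, 4 rose in R3 against R1: Cyp51, Msmo1, Hsd17b7 and Sc5d. Msmo1, the methyl oxidase that starts removal of the C4 methyl groups, had log2 values of 9.42, 9.41 and 9.39 in R3, 9.0, 8.58 and 8.44 in R2, and 8.32, 8.30 and 8.12 in R1. The R3 arrays lay closest together and the gates did not overlap. Msmo1 was 2.24-fold higher in R3 than in R1 (log2 change 1.16, standard error 0.15, limma adjusted p = 0.000749), the largest fold of the 31 genes in this comparison.

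Against R2, Msmo1 was 1.66-fold higher in R3 (log2 change 0.73, standard error 0.15, limma adjusted p = 0.0252). That call was lost without the R3 array of mouse 2 (adjusted p = 0.0775), 4 (0.0811) or 5 (0.0584) or the R2 array of mouse 4 (0.0963) or 5 (0.0748). It was also lost with the mean of its 2 probe sets (log2 change 0.48, adjusted p = 0.109).

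Cyp51, the demethylase that acts first on lanosterol, had log2 values of 11.23, 11.38 and 11.20 in R3, 10.86, 10.76 and 10.81 in R2, and 10.63, 10.58 and 10.49 in R1. The gates did not overlap. Cyp51 was 1.63-fold higher in R3 than in R1 (log2 change 0.70, standard error 0.11, limma adjusted p = 0.0022). Against R2 it was 1.37-fold higher (log2 change 0.46, standard error 0.11, adjusted p = 0.049), a call at the edge of the threshold. The call against R2 was lost with the mouse as a fixed block (adjusted p = 0.0737) and without any 1 of the 9 arrays (adjusted p = 0.0632 to 0.16). In R2 against R1 its change of 0.24 did not pass (adjusted p = 0.208), and with the mean of its 3 probe sets it was 0.49 and passed (0.0121).

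Hsd17b7, the reductase that completes removal of the C4 methyl groups, had log2 values of 9.98, 9.98 and 10.04 in R3, 9.95, 9.83 and 9.37 in R2, and 9.19, 8.90 and 8.94 in R1. Both papilla gates lay above R1, and R2 lay closer to R3. Hsd17b7 was 1.98-fold higher in R3 than in R1 (log2 change 0.99, standard error 0.17, limma adjusted p = 0.00279) and 1.63-fold higher in R2 than in R1 (log2 change 0.71, standard error 0.17, adjusted p = 0.0211). The call in R2 was lost without the R2 array of mouse 2 (adjusted p = 0.0738) or 4 (0.0781) or the R1 array of mouse 4 (0.0727) or 5 (0.061).

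Sc5d, the desaturase of a late step, had log2 values of 9.37, 9.39 and 8.80 in R3, 8.46, 8.69 and 8.67 in R2, and 8.20, 8.68 and 8.40 in R1. R3 lay above the others, with the R3 array of mouse 5 closest to them. Sc5d was 1.69-fold higher in R3 than in R1 (log2 change 0.76, standard error 0.19, limma adjusted p = 0.0217), and the call was lost without the R3 array of mouse 2 (adjusted p = 0.0745) or 4 (0.0801) or the R1 array of mouse 2 (0.0765) or 5 (0.057). With the mean of its 3 probe sets the change was 0.30 (adjusted p = 0.376). The change of 0.58 against R2 did not pass (adjusted p = 0.136) and passed without the R3 array of mouse 5 (0.0399).

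The other 4 late enzymes were not called in any comparison. Tm7sf2, Nsdhl and Ebp, a reductase, a dehydrogenase and an isomerase, had log2 changes of -0.12, -0.15 and -0.15 in R3 against R1 (limma adjusted p = 0.609, 0.755 and 0.711). Dhcr7, the reductase of the last step of a branch of the pathway, had log2 values of 9.65, 9.03 and 9.35 in R3, 8.92, 9.08 and 8.98 in R2, and 9.44, 9.85 and 9.47 in R1. All R2 arrays of Dhcr7 lay below all R1 arrays, opposite in direction to the enzymes above. Its log2 change of -0.59 in R2 against R1 just missed the threshold (standard error 0.18, adjusted p = 0.0573; range 0.0328 to 0.17 over the alternatives), and it passed without the R3 array of mouse 2 (0.0419) or 4 (0.0428).

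**Figure D3:**
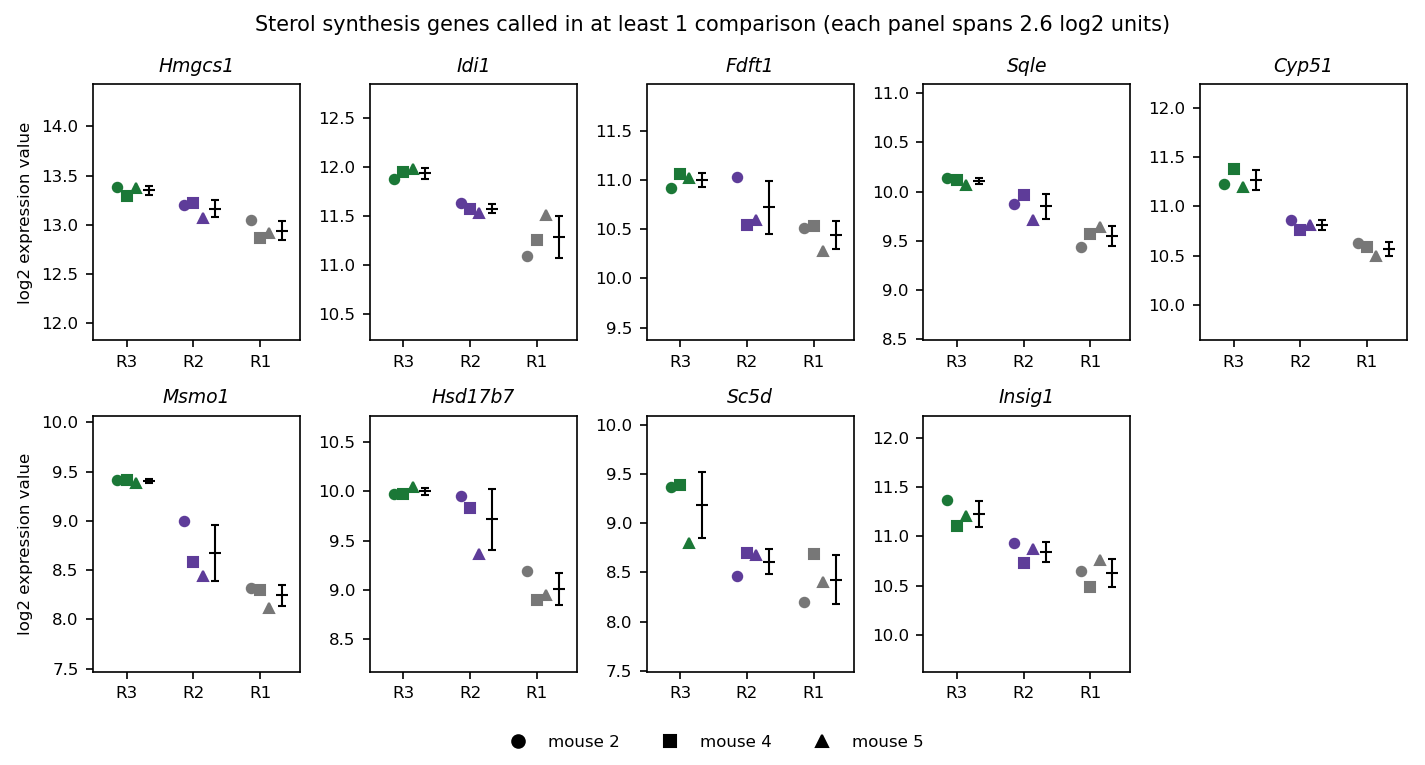
Log2 expression value (vertical axis) on each array for the 8 sterol enzymes and the regulator Insig1 that passed the test in at least 1 comparison, by gate; symbols mark the mouse and bars the mean ± SD (n = 3). R3 arrays lie above R1 arrays in each of the 9 panels; The R2 means lie between the R3 and R1 means.

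Among the 4 regulators, Insig1 rose in R3 against R1. Insig1, a sterol-sensing protein of the endoplasmic reticulum and itself a known SREBP target, had log2 values of 11.37, 11.10 and 11.21 in R3, 10.93, 10.73 and 10.87 in R2, and 10.65, 10.48 and 10.76 in R1. R3 lay above the other gates, and R2 overlapped with R1. Insig1 was 1.51-fold higher in R3 than in R1 (log2 change 0.60, standard error 0.13, limma adjusted p = 0.0116), and its change of 0.39 against R2 did not pass (adjusted p = 0.145).

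The factors themselves were not called. Srebf2, the factor known chiefly for sterol genes, had log2 values of 8.71, 8.53 and 8.30 in R3, 7.97, 8.26 and 8.38 in R2, and 8.54, 8.63 and 8.27 in R1, so R3 and R1 overlapped (log2 change 0.03, standard error 0.17, limma adjusted p = 0.924). Srebf1, the factor known chiefly for fatty acid genes, ranged from 8.35 to 9.53 in R3, 8.06 to 8.95 in R2 and 7.57 to 8.58 in R1. Its log2 change of 0.76 in R3 against R1 carried a standard error of 0.36 (adjusted p = 0.18). Scap, the escort that carries both factors, had a change of -0.03 (adjusted p = 0.92). These are transcript levels, and the cleavage that activates both factors was not measured.

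Promoter windows from RefSeq (GRCm38.p6) were found for 25 of the 31 genes, and the 250 bases before the transcript start were searched on both strands for 2 motifs known from SREBP target genes. The sterol regulatory element, written TCACNCCAC, matched in 1 of the 25, Hmgcs1, and in 1.27% of the 14452 tested genes with a window. The CCAAT box, the letters CCAAT bound by NF-Y, which is known to act beside SREBP, matched in 20 of the 25 (80%) and in 39.4% of those 14452 genes. It matched in all 8 of the genes that rose in R3 against R1 and had a window. A gene with several windows was counted where any of them held the motif, and neither motif contains the other. A match is a description of the letters and not of a bound site. Stretches around a match are shown for these 8 genes because they rose together, on the strand of the gene from 5′ to 3′, with the matched letters in capitals; ATTGG is the CCAAT box read on the opposite strand.
Hmgcs1 (plus strand, chr13:119690169-119690267): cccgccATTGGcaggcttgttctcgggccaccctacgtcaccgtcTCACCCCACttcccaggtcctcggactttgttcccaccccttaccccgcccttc
Idi1 (plus strand, chr13:8885567-8885605): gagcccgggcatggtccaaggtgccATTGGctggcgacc
Cyp51 (minus strand, chr5:4104698-4104751): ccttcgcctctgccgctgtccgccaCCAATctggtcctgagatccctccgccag
Msmo1 (minus strand, chr8:64733604-64733658): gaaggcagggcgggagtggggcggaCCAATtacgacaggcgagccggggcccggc
Hsd17b7 (minus strand, chr1:169969206-169969242): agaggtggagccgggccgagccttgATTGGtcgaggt
Sc5d (minus strand, chr9:42264301-42264349): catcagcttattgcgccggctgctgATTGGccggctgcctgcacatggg
Insig1 (plus strand, chr5:28071171-28071225): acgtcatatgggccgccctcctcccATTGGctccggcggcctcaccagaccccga
Elovl5 (plus strand, chr9:77917323-77917364): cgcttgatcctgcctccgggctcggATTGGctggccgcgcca

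In Hmgcs1 the element ended 128 bases before the start and the stretch also holds a CCAAT box. The CCAAT box nearest the start ended 7 bases before it in Hsd17b7, 9 in Idi1, 12 in Elovl5, 19 in Sc5d, 24 in Cyp51, 50 in Msmo1 and 211 in Insig1. CCAAT boxes were also found in most members with a window that did not rise in R3 against R1. These were Mvk, Pmvk, Mvd, Lss, Tm7sf2, Nsdhl, Ebp, Dhcr7, Srebf1, Srebf2, Fasn and Elovl1. The windows of Scap, Acaca, Acly, Elovl6 and Fads2 held none.

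Of the 10 fatty acid enzymes, Scd1, Elovl5 and Fads1 rose in R3 against R1, and Scd1 and Elovl6 rose in R3 against R2. The 3 genes of chain synthesis, Acly, Acaca and Fasn, were not called in any comparison, and whether they differ from the genes of desaturation and elongation was not tested. Acly, which makes cytosolic acetyl-CoA from citrate, had log2 changes of -0.05 in R3 against R1 and -0.19 against R2 (limma adjusted p = 0.814 and 0.476). Acaca, the carboxylase that makes malonyl-CoA, changed by 0.26 and 0.22 (adjusted p = 0.319 and 0.528). Fasn, the fatty acid synthase, changed by 0.22 and 0.31 (adjusted p = 0.421 and 0.368).

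Scd1, a desaturase that makes monounsaturated fatty acids, differed most clearly. It had log2 values of 10.45, 10.18 and 10.40 in R3, 8.70, 8.59 and 8.77 in R2, and 9.46, 9.28 and 9.37 in R1. R3 was highest, R1 intermediate and R2 lowest, with no overlap. The level of Scd1 in R3 was 3.14 times that in R2 (log2 change 1.65, standard error 0.12, limma adjusted p = 7.62e-05) and 1.96 times that in R1 (log2 change 0.97, adjusted p = 0.000626).

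In R2 against R1, Scd1 fell by 0.68 on the log2 scale (standard error 0.12, limma adjusted p = 0.00644), a 1.6-fold lower level. All 3 Scd1 calls held in each alternative run, and its other probe set was called in the same directions. Scd2, its paralog with a separate probe set, had log2 changes of 0.28 in R3 against R2 and 0.23 in R3 against R1 (adjusted p = 0.287 and 0.25).

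Elovl6, the elongase that extends palmitate, had log2 values of 9.56, 9.65 and 9.70 in R3, 8.74, 8.82 and 8.22 in R2, and 9.76, 9.35 and 8.85 in R1. R2 was low, and R3 and R1 overlapped. The level of Elovl6 in R3 was 2.07 times that in R2 (log2 change 1.05, standard error 0.24, limma adjusted p = 0.0347). The call was lost without the R3 array of mouse 2 (adjusted p = 0.0845), 4 (0.104) or 5 (0.0867), the R2 array of mouse 2 (0.0749), 4 (0.0586) or 5 (0.0959) or the R1 array of mouse 4 (0.0554), and with the mean of its 3 probe sets (0.089). Its change of -0.73 in R2 against R1 did not pass (adjusted p = 0.0738) and passed without the R1 array of mouse 5 (0.0216).

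Elovl5, an elongase of polyunsaturated fatty acids, had log2 values of 12.56, 12.47 and 12.51 in R3, 12.09 on each of the 3 R2 arrays, and 11.79, 11.60 and 11.45 in R1. The gates stood in steps from R3 through R2 to R1. The value on the 3 R2 arrays was identical (12.0875, SD 0), and this lack of spread enters the standard errors of Elovl5. Elovl5 was 1.86-fold higher in R3 than in R1 (log2 change 0.90, standard error 0.12, limma adjusted p = 0.000822) and 1.39-fold higher in R2 than in R1 (log2 change 0.48, adjusted p = 0.0299). The call in R2 was lost without the R2 array of mouse 2 (adjusted p = 0.0772), 4 (0.0862) or 5 (0.0715) or the R1 array of mouse 4 (0.0822) or 5 (0.087). Its change of 0.42 against R2 did not pass (adjusted p = 0.0851; range 0.016 to 0.209 over the alternatives).

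Fads1, a desaturase of polyunsaturated fatty acids, had log2 values of 11.31, 11.39 and 10.99 in R3, 10.75, 11.03 and 10.64 in R2, and 10.68, 10.48 and 10.40 in R1. R3 lay above R1, and its array of mouse 5 was just under the R2 array of mouse 4. Fads1 was 1.64-fold higher in R3 than in R1 (log2 change 0.71, standard error 0.16, limma adjusted p = 0.0126). The call was lost without the R3 array of mouse 4 (adjusted p = 0.051) and with the mean of its 2 probe sets (0.174). Its partner desaturase Fads2 and the elongase Elovl1 had log2 changes of 0.21 and 0.31 (adjusted p = 0.32 and 0.27).

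**Figure D4:**
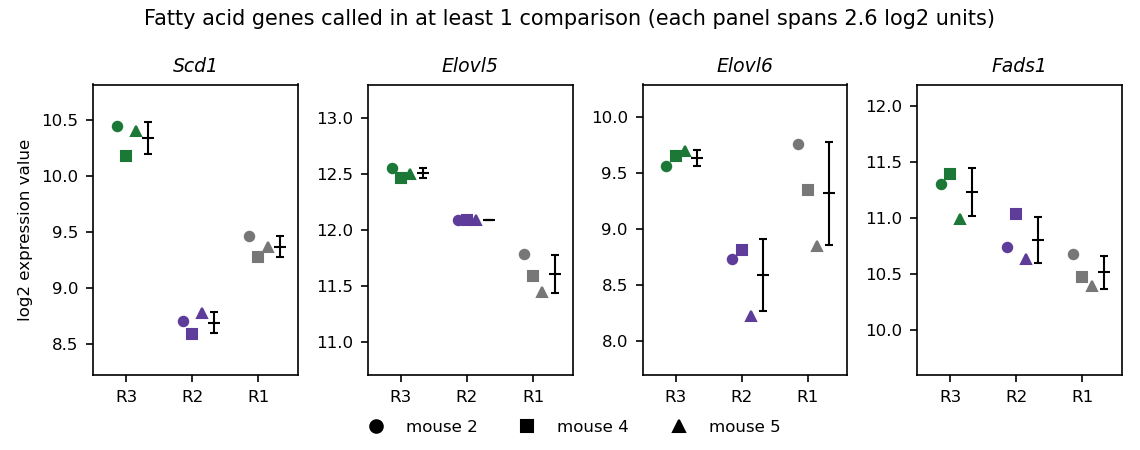
Log2 expression value (vertical axis) on each array for the 4 fatty acid enzymes that passed the test in at least 1 comparison, by gate; symbols mark the mouse and bars the mean ± SD (n = 3). Scd1 is lowest in R2 and highest in R3 without overlap, and Elovl6 overlaps between R3 and R1.

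Other probe sets of the genes that rose in R3 against R1 pointed the same way for 18 of 19, of which 6 were called and 0 were called in the opposite direction. These 19 belonged to 10 of the 12 genes. Of the 12 genes that rose in this comparison, 8 held in each alternative run, namely Cyp51, Msmo1, Hsd17b7, Idi1, Sqle, Insig1, Scd1 and Elovl5. Sqle and Insig1 had 1 probe set each, so the mean over probe sets left their values unchanged.

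Genes that move or sense sterols were called in both directions. Of 14 measured genes of sterol transport and sensing, 3 rose and 1 fell in R3 against R1, 0 rose and 2 fell in R3 against R2, and 3 rose and 0 fell in R2 against R1. The shares of all genes that rose and fell were 7.9% and 10.8%, 1.97% and 3.06%, and 6.89% and 6.16% in these comparisons. Abca1, a cholesterol exporter, was 1.96-fold higher in R3 and 2.69-fold higher in R2 than in R1 (limma adjusted p = 0.000716 and 0.000113). Vldlr, a lipoprotein receptor, was 1.78-fold and 1.73-fold higher in R3 and R2 than in R1 (adjusted p = 0.0123 and 0.0214). The call of Vldlr in R2 was lost without the R2 array of mouse 2 (0.0763) or 4 (0.0757) or the R1 array of mouse 2 (0.0734) or 5 (0.0682). Stard4, a sterol carrier known as an SREBP target, was 1.6-fold higher in R3 than in R1 (adjusted p = 0.0316). It was lost without the R3 array of mouse 2 (0.101) or 4 (0.102) or the R1 array of mouse 2 (0.0607), 4 (0.0845) or 5 (0.0801).

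Abcg1, another exporter, had values of 3.75 to 4.15 in R3, under the background guide, against 5.38 to 6.05 in R2 and 5.46 to 6.09 in R1. It fell in R3 against both (limma adjusted p = 0.00204 against R2 and 0.000601 against R1), and no fold is given because R3 is at background. The lipoprotein receptor Scarb1 fell by 1.27 in R3 against R2 (adjusted p = 0.0297) and was 1.97-fold higher in R2 than in R1 (adjusted p = 0.0458). Both calls of Scarb1 were lost with the mouse as a fixed block (0.0583 and 0.0711). The first was lost without the R3 array of mouse 2 (0.103) or 4 (0.109) or the R2 array of mouse 2 (0.105), 4 (0.0604) or 5 (0.0826). The second was lost without the R3 array of mouse 2 (0.0566) or 4 (0.0549), the R2 array of mouse 2 (0.131), 4 (0.0756) or 5 (0.11), or the R1 array of mouse 2 (0.141) or 5 (0.122), and with quantile normalization repeated (0.0525). Abcg1 and Scarb1 were lower in R3 than in R2, as the endothelial markers were. Scarb1, Abca1 and Vldlr were higher in R2 than in R1, where endothelial markers were also higher. Vldlr changed by only 0.04 in R3 against R2, and Abcg1 by -0.06 in R2 against R1 (limma adjusted p = 0.9388 and 0.9115). Abca1 and Vldlr rose in R3 against R1, where 6 of 11 endothelial markers fell and 2 rose. The part of endothelial cells in these changes was not tested.

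Of 24 measured genes of fatty acid supply and modification, 1 rose and 1 fell in R3 against R1, 0 passed in R3 against R2 by limma (2 higher and 0 lower unadjusted), and 2 rose and 1 fell in R2 against R1. Among all genes, 7.9% rose and 10.8% fell in R3 against R1, 1.97% and 3.06% in R3 against R2, and 6.89% and 6.16% in R2 against R1. The counts of this list lay near or under those shares. Fads3, a desaturase-like relative of Fads1, was 1.76-fold and 1.61-fold higher in R3 and R2 than in R1 (adjusted p = 0.0172 and 0.0484). Acsl5, which activates fatty acids, fell by 0.82 in R3 and by 0.93 in R2 against R1 (adjusted p = 0.00539 and 0.00406). Lpin1, a phosphatase of triglyceride synthesis, was 1.73-fold higher in R2 than in R1 (adjusted p = 0.0368). With the mouse as a fixed block, the R2 calls of Fads3 and Lpin1 were lost (0.0849 and 0.0612). Fads3 was lost in R3 without the R3 array of mouse 2 (0.0593) or 5 (0.058) or the R1 array of mouse 5 (0.0575), and with the mean of all its probe sets (log2 change 0.51, adjusted p = 0.072). In R2 it was lost without the R3 array of mouse 2 (0.0614) or 5 (0.054), the R2 array of mouse 4 (0.16) or 5 (0.104) or any R1 array (0.0647, 0.109 and 0.134 without that of mouse 2, 4 and 5). It was also lost in R2 with the 6 arrays alone (0.0549), with quantile normalization repeated (0.0534) and with the mean of its probe sets (0.0551). Lpin1 was lost without any 1 R3 array (0.0511, 0.0536 and 0.0507), the R2 array of mouse 2 (0.113) or 4 (0.123) or the R1 array of mouse 2 (0.0989) or 4 (0.111), with the 6 arrays alone (0.0746) and with the mean of its probe sets (0.0583).

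Markers of lipid-making cell types moved between the gates as well. The glial and Schwann list, which includes Mbp, Cdh19 and Fabp7, had a summed level of 13.11 to 13.27 in R3, 10.67 to 10.95 in R2 and 11.82 to 11.92 in R1 (log2 of summed values). Of its 9 measured markers, 4 had means under the background guide in R2 and 4 in R1. Pmp22 alone had a mean of 10.42 in R2, where the mean sum was 10.83. In R2 against R1, 8 of the 9 estimates lay below 0 and 1, that of S100b, lay above. Mbp, the myelin basic protein gene, had log2 values of 11.84 to 12.04 in R3, 5.06 to 6.48 in R2 and 6.87 to 8.34 in R1. The order of the glial summed level, R3, R1 and R2 from high to low, was also the order of Scd1 and of the Elovl6 means. The means of Pmvk, Lss, Srebf2, Fasn, Scd2 and Fads2 had this order too, and none of these genes was called in the fit described here. The 8 sterol enzymes called in R3 against R1 had their lowest means in R1, which choosing them by that comparison favours. Of all 17 measured sterol enzymes, 9 had means in the order R3, R2, R1 (52.9%, against 18.4% of all genes). Hsd17b7 and Elovl5 rose in R2 against R1, where the glial summed level was lower in R2. The part of glial cells in the higher levels in R3 was not tested.

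The 6 measured sebaceous markers summed to 7.86 to 8.26 in R3, 6.94 to 7.65 in R2 and 7.08 to 7.80 in R1. Of these markers, 3 had means under the background guide in R3, 6 in R2 and 5 in R1. In R3, 1 of the 6 rose against R2 and 2 rose against R1, and 0 fell in either, while Scd3 had an uncalled change of -0.85 against R1. Among all genes, 7.9% rose and 10.8% fell in R3 against R1, and 1.97% and 3.06% in R3 against R2. The genes that rose against R1 were Mc5r and Cidea. Cidea lay under the background guide in both gates, at 2.92 to 3.38 in R3 and 2.36 to 2.57 in R1. Mc5r, a melanocortin receptor known from sebaceous cells, had log2 values of 6.20 to 6.41 in R3, against 4.76 to 5.15 in R2 and 4.41 to 4.55 in R1. It rose in R3 (limma adjusted p = 0.000391 against R2 and 2.43e-05 against R1), and no fold is given because its R2 and R1 means lie under the background guide. Of 9 measured adipocyte markers, 4 fell in R3 against R1 and 3 against R2, 0 rose in either, and their summed level was 12.09 to 12.29 in R3, 13.11 to 13.37 in R2 and 13.30 to 13.44 in R1. Fabp4 made up most of that sum, with a mean of 12.87 in R1, where the mean sum was 13.38. Adipocyte markers with means under the background guide numbered 2 in R3, 3 in R2 and 1 in R1. Fabp4, the fatty acid binding protein of fat cells, fell by 1.38 in R3 against R1 and by 1.21 against R2 (adjusted p = 0.000327 and 0.00201). Keratinocyte markers summed to 11.57 to 12.45 in R3, 11.82 to 12.07 in R2 and 14.58 to 15.04 in R1.

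Of 9 measured cell cycle genes, 9 fell in R3 against R1, 0 passed in R3 against R2 (0 higher and 7 lower at an unadjusted p under 0.05) and 2 fell in R2 against R1 by limma. The sterol enzymes together summed to 14.69 to 14.74 in R3, 14.33 to 14.52 in R2 and 14.21 to 14.29 in R1. The fatty acid enzymes summed to 14.13 to 14.19 in R3, 13.77 to 13.81 in R2 and 13.62 to 13.71 in R1. Bright genes weigh most in these sums. Hmgcs1 alone had a mean of 13.35 in R3, where the mean sum of the sterol enzymes was 14.71. Elovl5 had a mean of 12.51 in R3, where the mean sum of the fatty acid enzymes was 14.15. The part of these marker lists, of the leukocyte and fibroblast markers and of the beta-actin difference, in the changes against R1 was not tested.

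**Figure D5:**
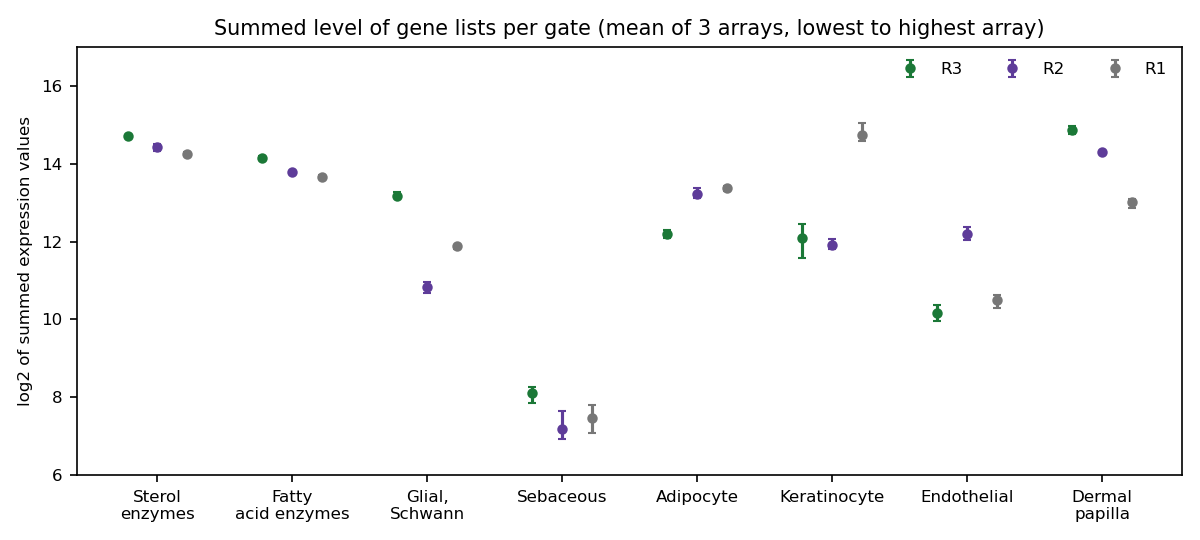
Log2 of the summed expression values (vertical axis) of the sterol and fatty acid enzymes and of 6 marker lists in R3, R2 and R1; points are means of 3 arrays and bars run from the lowest to the highest array. The enzymes stand highest in R3, glial markers are highest in R3 and lowest in R2, and adipocyte markers are lowest in R3.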

How the data were processed

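RNA of the sorted cells was amplified with the WT-Ovation Pico system and hybridised to 1-colour arrays, per the labels' protocols. The authors deposited log2 values, 1 per probe set and array, made with RMA, per the submitters' processing notes; its version, not given in the sources used here, is unknown, as is whether the 9 arrays were handled together. RMA gives no detection call and is known to compress folds, and the number of arrays limits the precision.

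Gene symbols came from the platform table: of 45101 probe sets, 34945 had 1 symbol and were used, 932 had several, and 0 symbols were updated through RefSeq. The gates were compared by limma (version 3.58.1, R version 4.3.3; lmFit, contrasts.fit and eBayes) over all 9 arrays with no block and no filter. Benjamini-Hochberg adjustment ran over 18193 genes within each comparison. The members and lists were chosen with earlier results of these data known. Each measured member is named, with values of all arrays for those called; of the lists of other lipid genes, called genes are named, and of marker lists, at most 3 by lowest p. Other listed genes are not analysed here.

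Arrays with 1 number come from 1 mouse, per the labels, and are paired. Their deviations from the gate means correlated at 0.0068 to 0.177 (mean 0.085), and those of different mice at -0.157 to 0.041 (mean -0.043). Alternatives to this fit treated the mouse as a block (fixed, then random), left out each array, used the 6 arrays of a comparison alone, centred arrays on the median, repeated quantile normalization, averaged a gene's probe sets, kept genes above the median gene, or used a trend and robust variance. The test of all probe sets singly was added after seeing the data. In data simulated for R3 against R2, with 200 of 18193 genes changed, the fit found 24% of genes changed 1.5-fold, 56% of those changed 2-fold and 100% of those changed 4-fold, and 4 of its 144 calls were unchanged genes. The changed genes all rose in R3 and the noise was independent, while the real comparison called 358 genes higher and 557 lower. The share found depends on how many genes change, so these percentages need not hold for the real fits. Tables were made in pandas 2.3.3 and numpy 2.4.6 under Python 3.11.15, and plots in matplotlib 3.10.9.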

Additional observations from a re-analysis of the deposited data

How the results depend on the processing

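No call of a named gene changed direction under the alternatives run. With the 6 arrays of a comparison alone, 2 of the 31 genes were called higher in R3 against R2, and in R2 against R1 0 were called higher and 2 lower (main counts 4, 2 and 1). This setting ended the calls of Cyp51 (adjusted p = 0.0893) and Msmo1 (0.0585) in R3 against R2, Hmgcs1 (0.0622) in R3 against R1, and Hsd17b7 (0.0514), Elovl5 (0.0602), Fads3 (0.0549) and Lpin1 (0.0746) in R2 against R1. The count called lower in R2 against R1 was 3 with quantile normalization repeated, with the mean of all probe sets and for the brighter genes alone, and 2 under the trend and robust variance. The median log2 change in R2 against R1, 0.04, became 0.0065 with quantile normalization repeated and 0.0734 with the mean of all probe sets.

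With each array left out in turn, the count of the 31 called higher was 1 to 3 in R3 against R2, 8 to 12 in R3 against R1 and 0 to 2 in R2 against R1, with 1 to 2 called lower in the last. The median over the 31 was 0.223 to 0.315 in R3 against R2 and 0.0137 to 0.15 in R2 against R1. Among all genes, 317 to 507 were called lower in R3 against R2 (main 557) and 804 to 1279 higher in R2 against R1 (main 1254). The mouse as a fixed replicate block ended the call of Cyp51 in R3 against R2 (log2 change 0.46, adjusted p = 0.0737), both calls of Scarb1 (0.0583 and 0.0711) and the calls of Fads3 and Lpin1 in R2 against R1 (0.0849 and 0.0612), and changed no other call of a named gene; as a random block (correlation 0.0544) it changed none. Genes gained in R2 against R1 included Dhcr7, called lower with quantile normalization repeated (adjusted p = 0.0366), and Elovl6 (0.0399). The cause of these changes was not tested. With 3 arrays per gate, small changes are often missed, and a gene not called is not shown to be unchanged. Of the members called in no setting, the sign of the estimate changed in at least 1 alternative for 5 of 25 in R3 against R2, 7 of 18 in R3 against R1 and 12 of 23 in R2 against R1.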
